A study of Homo sapiens with 2 samples.

Results

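The genes described here are 7 known CREB-responsive genes, FOS, FOSB, EGR1, PER1, BDNF, CCND1 and STAR, that had a CREB peak near their transcription start site (TSS). They were taken as the rows of the authors' table of peaks within 50 kb of a refGene TSS that carry these symbols, 8 of its 4780 rows and 7 of its 2495 symbols, and each row was joined by peak name to the peak list of 5285 peaks. The genes were chosen because a peak lay near them, so their folds, distances and peak counts are a description and carry no test. The study mapped CREB by chromatin immunoprecipitation and sequencing (ChIP-seq) in the established cell line NGP, a human neuroblastoma line. The groups were 1 CREB ChIP library and 1 input library, which is DNA taken without immunoprecipitation, both from cells for which the labels name no treatment, harvested at 80 to 90% confluency in medium with 20% serum. Neither library had a replicate, and the spread between cultures is therefore unknown for every value given. The series' design text gives its purpose as the search for direct targets of CREB downstream of the kinase-family protein CAMKV. A peak list holds no expression, so the labelled cell type was not checked against markers.

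CREB is a transcription factor that binds DNA as a dimer at the cAMP response element (CRE), a palindrome, and more weakly at single copies of its core. Kinases that answer to cAMP or calcium, such as protein kinase A and the calcium/calmodulin kinases, phosphorylate it, and it then recruits coactivators with acetyltransferase activity. In neurons and neuroendocrine cells it is best known for the rapid induction of immediate-early genes after depolarisation or hormone signals. FOS and FOSB encode partners of JUN proteins in the AP-1 factor, and EGR1 encodes a zinc-finger factor. PER1 encodes a repressor of the circadian clock, BDNF a neurotrophin, CCND1 the cell-cycle regulator cyclin D1, and STAR the protein that carries cholesterol into mitochondria for steroid synthesis.

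The sequences before the starts of FOS, FOSB and EGR1 are shown because these were the genes with a peak at the promoter. Each is the 250 bases that precede the TSS, 5′ to 3′ on the gene's strand (plus in all 3), from RefSeq on GRCh38.p14, at chr14:75278578-75278827 for FOS, chr19:45467746-45467995 for FOSB and chr5:138465229-138465478 for EGR1. Capitals mark the CRE core, TGACG, read on either strand, so that it also appears as CGTCA.
FOS: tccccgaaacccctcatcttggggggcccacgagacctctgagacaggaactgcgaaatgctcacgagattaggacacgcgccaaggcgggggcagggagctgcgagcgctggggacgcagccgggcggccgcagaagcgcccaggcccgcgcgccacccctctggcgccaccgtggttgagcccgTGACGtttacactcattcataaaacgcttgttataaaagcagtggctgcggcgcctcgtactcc
FOSB: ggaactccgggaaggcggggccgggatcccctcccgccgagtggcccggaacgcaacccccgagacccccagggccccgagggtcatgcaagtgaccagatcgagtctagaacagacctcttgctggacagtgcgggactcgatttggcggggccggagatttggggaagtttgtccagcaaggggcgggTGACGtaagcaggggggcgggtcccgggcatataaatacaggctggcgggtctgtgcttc
EGR1: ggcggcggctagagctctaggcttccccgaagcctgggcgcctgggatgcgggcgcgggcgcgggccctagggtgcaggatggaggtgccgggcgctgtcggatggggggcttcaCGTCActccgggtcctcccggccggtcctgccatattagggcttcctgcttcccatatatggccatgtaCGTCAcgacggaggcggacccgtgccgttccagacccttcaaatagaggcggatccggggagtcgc

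All 3 promoters held the core and none held the full CRE, TGACGTCA, within the window searched, which runs from 250 bases before to 50 bases after the TSS. FOS had 1 core with its first base 64 bp upstream of the TSS, and FOSB had 1 core 60 bp upstream. EGR1 had 2 cores, 135 and 66 bp upstream, both on the minus strand. The core lies inside the deposited peak at FOS and at FOSB. At EGR1 the peak ends on the first base of the upstream core, and the other core lies outside it.

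The distance from summit to core differed among the 3 genes. The FOS core was centred 30 bp downstream of the summit, the FOSB core 121 bp downstream, and the nearer EGR1 core 136 bp downstream. Over the 144 promoter windows that had both a core and a protein-coding promoter peak, the nearest core lay at a median of 51 bp from the summit (quartiles 18.8 to 97.2 bp). The core was thus nearer than the median at FOS and beyond the upper quartile at FOSB and EGR1. Among promoter peaks of 5 fragments, the level of FOSB and EGR1, the median was 67 bp and the quartiles were 50 to 142 bp, so both genes lay within the quartiles of peaks of their own height. The EGR1 window covers only 116 of the 173 bases of its peak and leaves out the summit.

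**Figure D1:**
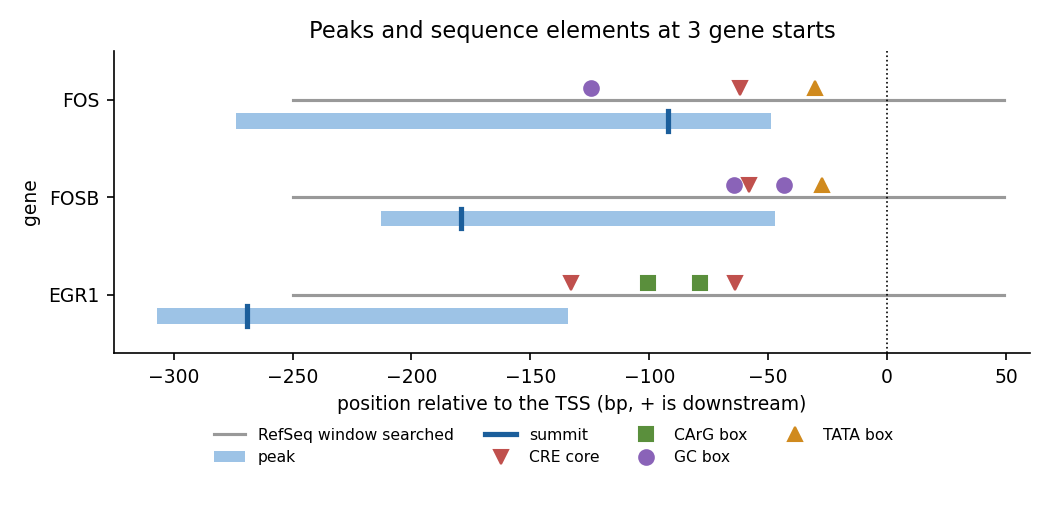
Peaks (bars), summits (ticks) and sequence elements (symbols) at FOS, FOSB and EGR1, by position relative to the TSS in bp; the grey line is the RefSeq window searched. The CRE core lies under the peak at FOS and FOSB, while at EGR1 the peak ends on the first base of the upstream core.

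Cores are common in promoters, and more so where a CREB peak was called. Of 186 windows at protein-coding promoters with a peak, 144 (77.4%) held the core, against 27.4% of 21874 windows of protein-coding genes without a promoter peak and 24.6% of all 35116 RefSeq windows. The full CRE was held by 51 of the 186 windows (27.4%), against 1.98% of windows of protein-coding genes without a promoter peak and 1.85% of all windows. The 186 windows were limited to starts near the TSS of the authors' table, and the windows set against them were not. With all 280 RefSeq windows of the promoter-peak genes, 66.1% held the core and 23.6% the full CRE. A core without the full palindrome, as at FOS, FOSB and EGR1, was found in 93 of the 186 windows. Windows at promoter peaks had a median of 26 CpG dinucleotides, against 21 in windows of protein-coding genes without one, and the part of this composition in the shares was not tested. Some of the 186 windows share a peak because their genes start back to back.

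A core was also present in the window at most of the weakest promoter peaks. Peaks of 5 fragments, the level of FOSB and EGR1, had the core in 31 of 37 windows (83.8%) and the full CRE in 7 (18.9%). Peaks of 6 to 8 fragments, the level of FOS, had the core in 63 of 83 windows (75.9%) and the full CRE in 27 (32.5%). Peaks of 9 or more fragments had them in 80.8% and 28.8% of 52 windows, and peaks of 4 fragments in 57.1% and 14.3% of only 14 windows. Presence in the window does not place the core under the peak. Of windows with a core, it lay inside the peak in 1 of 8 at 4 fragments and 20 of 31 (64.5%) at 5. At 6 to 8 fragments the share was 84.1%, and at 9 or more it was 97.6%. The share inside the peak also depends on how wide the peak is, and widths were not compared among these classes. These shares are descriptions over windows of 1 ChIP library.

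**Figure D2:**
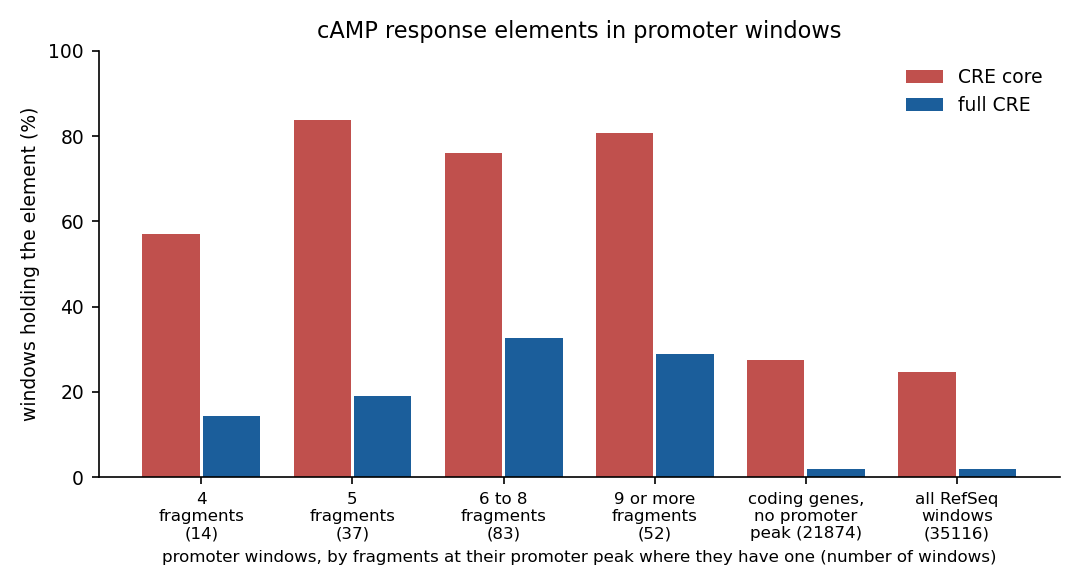
Share of promoter windows (percent) holding the CRE core and the full CRE, for windows at promoter peaks grouped by the fragments at the peak, for protein-coding genes without a promoter peak and for all RefSeq windows; numbers of windows are in brackets. Every class with a promoter peak stands above both classes on the right, and peaks of 5 fragments had the core in 83.8% of windows. An element counts wherever it lies in the window, under the peak or not.

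By the other elements searched in the window, FOS and FOSB were alike and EGR1 differed from them. A TATA box (TATAAA) lay 33 bp upstream of the FOS start and 30 bp upstream of the FOSB start, and was not found in the EGR1 window; 11.5% of all windows hold one. Within the window, EGR1 alone had CArG boxes, the site of serum response factor, 105 and 83 bp upstream. This element is found in 1.29% of all windows. Sequence more than 250 bases before the TSS was not searched for any gene. The GC box (GGGCGG), a site of SP1-family factors, occurred once before FOS and at 2 places before FOSB, and 45.0% of all windows hold one. None of the 5 genes with a window had the AP-1 element (TGANTCA), which 7.71% of all windows hold. All elements were searched on both strands. The core is part of the full CRE, and no GC box overlapped a core in these 3 promoters.

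FOS had the strongest peak of the 7 genes. The authors' peak spans chr14:75278554-75278778, 225 bp, with its summit 92 bp upstream of the TSS and 50 bp between its edge and the TSS. Its fold enrichment, the ratio of the ChIP pileup to the background at the summit, was 6.69, its −log10 q was 5.71, and 8 fragments (95% Poisson interval 3.45 to 15.8, counting error only) stood over an expected background of 0.346 fragments. That fold ranks 1070 among all 5285 peaks, with 79.6% of them lower, and 62 of the 222 promoter peaks of protein-coding genes had a higher one. FOS was the only gene of the 7 whose peak passed a −log10 q of 5, which 30.3% of all peaks pass. The next symbol paired with the peak was LINC01220, a noncoding gene, 15.7 kb away.

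FOSB, the paralog of FOS, was the only one of the 7 with a second peak. Its promoter peak spans chr19:45467783-45467948, 179 bp upstream at the summit, with a fold of 4.82, a −log10 q of 2.87 and 5 fragments (95% interval 1.62 to 11.7) over a background of 0.246. A further peak lay 10.8 kb upstream of the FOSB TSS, at chr19:45457122-45457288. It had 7 fragments (2.81 to 14.4), more than the promoter peak, but over a background of 0.949, so its fold was the lowest of the 8 peaks at 4.11 and its −log10 q was 1.77. This upstream peak lay nearer to the start of ERCC1, a DNA repair gene, at 5.62 kb, and overlapped no RefSeq gene. Of all protein-coding genes, 0.906% were paired with more than 1 peak.

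EGR1 had a peak whose values equalled those of the FOSB promoter. The peak spans chr5:138465172-138465344, its summit is 269 bp upstream of the TSS, and its fold of 4.82, −log10 q of 2.87 and 5 fragments over 0.246 match those of FOSB digit for digit. This is a common value of the list: 471 peaks have exactly this fold, and 1045 peaks (19.8%) rest on 5 fragments. The peak stood alone, with the next one 1055 kb away. REEP2, a gene for a receptor-transport protein, was the other symbol paired with it, at 26.2 kb.

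Beyond 1 kb the peaks were of like height. PER1, on chromosome 17, had its peak 1983 bp upstream, with a fold of 4.68, a −log10 q of 2.66 and 5 fragments over 0.282. The peak was paired with 9 symbols, PER1 being the nearest and VAMP2, a synaptic vesicle gene, next at 8.56 kb. It was the most isolated of the 8, with no other peak within 4863 kb. The PER1 window itself held no CRE core but 4 CCAAT boxes, an element of 34.6% of all windows, and 4 GC boxes, of which a pair overlap. The peak lies outside this window, so the sequence under the peak was not read.

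STAR, on chromosome 8, had its peak 6308 bp upstream, with a fold of 4.63, a −log10 q of 2.54 and 5 fragments over 0.297. With 312 bp this was the widest of the 8 peaks, against a median of 236 bp in the whole list. Its summit lay within LOC105379382, an uncharacterised RefSeq gene, and STAR was the nearest of the 3 symbols paired with it. LSM1, an RNA decay factor gene, and BAG4, a chaperone regulator gene, had their starts 19.5 and 19.6 kb away. No promoter window was matched for STAR or for CCND1.

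BDNF had its peak 24.3 kb upstream of the TSS used in the authors' table, in sequence with no RefSeq gene. The fold was 4.46, the −log10 q 2.24, and 5 fragments stood over 0.346. BDNF was the only symbol paired with this peak. The gene has 5 starts in the RefSeq windows, and the peak lies upstream of all of them, from 24.3 kb at the outermost to 86.7 kb at the innermost. The table used the outermost start only.

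One of the 5 BDNF windows held a CRE core. It belongs to the start at position 27701621 of chromosome 11, with the core 47 bp upstream, and the peak is 44.7 kb from that start. Calcium-responsive transcription of BDNF in neurons is known to run through a CREB site close to one of its internal starts, and the 30 bases around this core (chr11:27701651-27701680, minus strand, core in capitals) are shown for that reason.
BDNF: tatgacagcgcaCGTCAaggcaccgtggag

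CCND1, on chromosome 11, was the one gene of the 7 whose peak lay downstream of its TSS. The summit was 27.7 kb from the start and 14.4 kb beyond the end of the gene, with a fold of 4.72, a −log10 q of 2.74 and 5 fragments over 0.272. It lay within LTO1, a ribosome-maturation gene whose own start is 6.52 kb away, so CCND1 was not the nearest gene. FGF19, a growth factor gene, was paired with the same peak at 35.2 kb.

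Set side by side, the 8 peaks could not be ordered by their height. Below FOS at 6.69, the folds ran from 4.82 at FOSB and EGR1 through CCND1, PER1, STAR and BDNF to 4.11 at the upstream FOSB peak. The fragment interval of every peak overlapped that of FOS, and 6 of the 8 peaks had 5 fragments. These intervals cover the fragments alone and not the background, which also sets the fold, so the order by fold was not tested. Among the 6 peaks of 5 fragments, the spread of folds came from the background, between 0.246 and 0.346 fragments. In 7 of the 8 peaks the fold was below the median of the whole list, 5.24. Peaks paired with a TSS had a lower median fold, 4.82, which is the value at FOSB and EGR1. Of the 8 peaks, 7 lay upstream of the TSS. No share of upstream summits over all pairs is given, so nothing is read from that count. None of the 8 peaks lay in a 1 Mb window with 10 or more peaks, where 64.0% of the whole list lay. Each had 0 or 1 other peak within 500 kb. The 64.0% is over all 5285 peaks, of which 1314 were paired with a TSS. No such share is given for the paired peaks alone, so nothing is read from this difference.

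**Figure D3:**
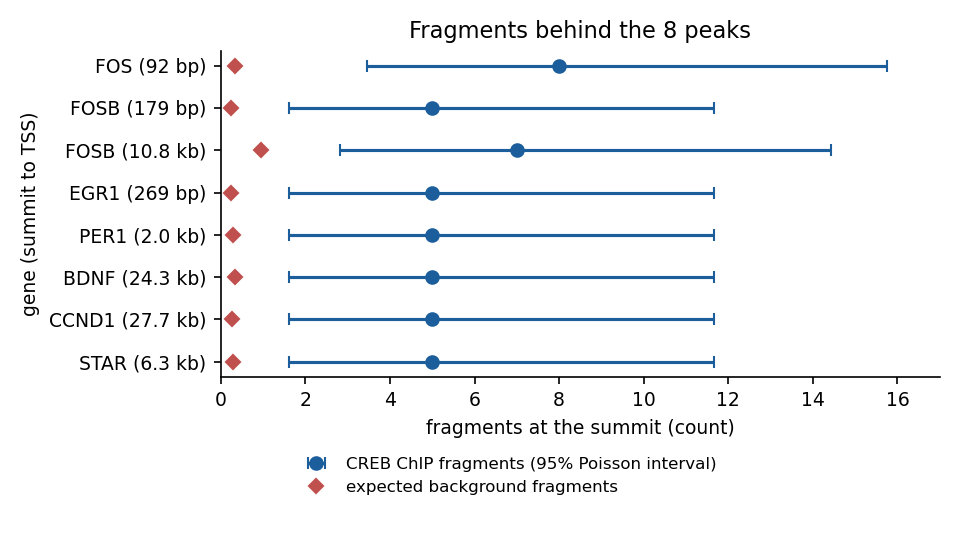
Fragments at the summit of the 8 peaks in the CREB ChIP library (circles, with exact 95% Poisson intervals) and the background expected by the peak caller (diamonds), by gene and summit-to-TSS distance. FOS has 8 fragments and the upstream FOSB peak 7, the other 6 peaks have 5, and all intervals overlap.

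**Figure D4:**
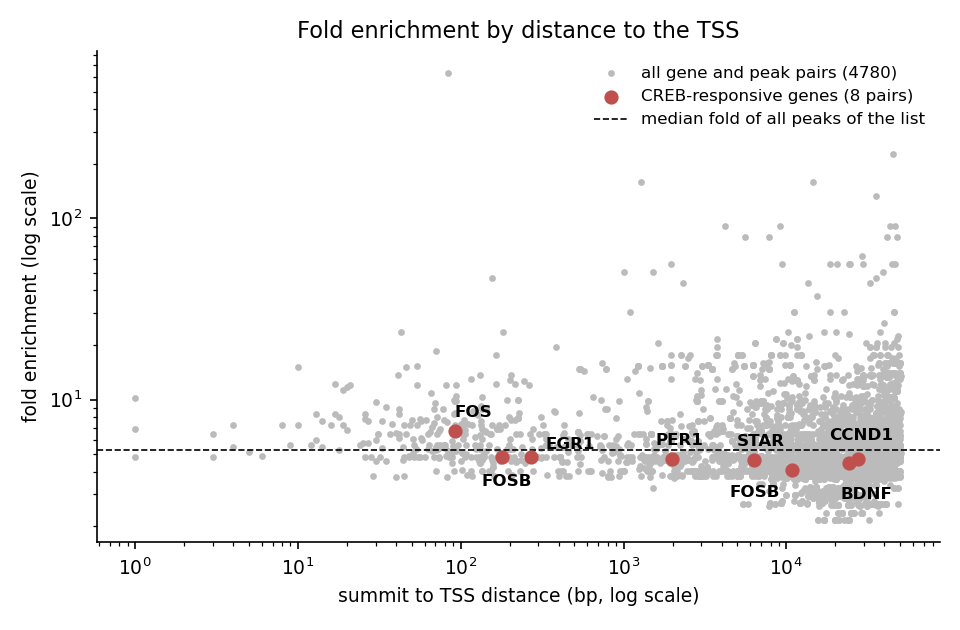
Fold enrichment against summit-to-TSS distance, both on log axes, for all 4780 gene and peak pairs of the authors' table (grey, 1 pair at 0 bp drawn at 1 bp) and for the 8 pairs of the 7 genes (red); the dashed line is the median fold of all peaks, 5.24. FOS alone lies above the line, and the other 7 pairs lie below it. The median fold of the peaks paired with a TSS is lower, 4.82.

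By position, 3 of the 7 genes had their summit less than 1 kb from the TSS, against 1.33% of the 19974 protein-coding genes. The same 3 lay within 500 bp, against 1.20% of protein-coding genes, and PER1 joined them within 5 kb, against 1.96%. With a −log10 q of 5 or more, FOS alone was left within 1 kb, against 0.531% of protein-coding genes, and within 50 kb, against 2.46%. All 7 had a peak within 50 kb by the way they were chosen, against 8.47% of protein-coding genes. Nothing is read from these counts, since a nearby peak was what selected the genes.

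Promoters of genes with other roles had peaks of like height. Among 238 protein-coding genes with a summit within 500 bp of the TSS, the closest in fold to FOS were SNF8, an ESCRT-II subunit gene, at 6.70 with 10 fragments, and RECQL5, a DNA helicase gene, and SAP30BP at 6.66 with 8 fragments on 1 shared peak. For FOSB, HNRNPH2, an RNA-binding protein gene, MAGI3, a scaffold protein gene, and GPR89A had the identical fold of 4.82. For EGR1 they were TTC16, B3GAT2, a glucuronosyltransferase gene, and MTURN, again at 4.82. The likeness is one of fold alone in 1 library.

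The wider set of CREB-responsive genes was then examined from a list of 46 genes in 7 roles, which holds the 7 genes above. In all, 8 of the 46 (17.4%) were paired with a peak within 50 kb and 3 (6.52%) had a summit within 1 kb, against 8.47% and 1.33% of all protein-coding genes. Since 7 of the 8 are the genes chosen for their peaks, nothing is read from these shares. Of the 39 other listed genes, 1 (2.56%) was paired with a peak. Taking out the 7 genes chosen for their peaks lowers that share, so nothing is read from it either. The 3 genes with a summit within 1 kb were among 11 immediate-early transcription factor genes. The other 8 of that role, namely EGR2, EGR3, JUNB, NR4A1, NR4A2, NR4A3, NPAS4 and ATF3, had no peak paired with them. The nearest peak to a start of NR4A1, an orphan nuclear receptor gene, was 404 kb away. None of the 7 feedback regulators, such as SIK1 and DUSP1, and none of the 9 neuropeptide and hormone genes, such as SST and VIP, was paired with a peak. As 8.47% of all protein-coding genes were paired, a count of 0 among 7, 8 or 9 genes sets none of these groups apart. For the 8 immediate-early genes, the 3 with a peak had also been taken out beforehand.

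PCNA, the DNA-replication clamp gene, was the one listed gene with a pair outside the 7. It had 2 peaks downstream of its TSS, at 13.5 kb with a fold of 4.90 and 7 fragments and at 39.0 kb with a fold of 3.81 and 4 fragments, and the nearest start to the first was that of TMEM230. Among the 38 unpaired genes, 28 had a RefSeq start to measure from. Just outside the 50 kb limit lay VIP, a neuropeptide gene, at 55.8 kb, and DUSP1, a phosphatase gene, at 63.6 kb, while the outermost of the 7 genes inside it was CCND1 at 27.7 kb. For the other 10 genes no start was used, and the nearest summit to either end of any of them was 103 kb away.

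**Figure D5:**
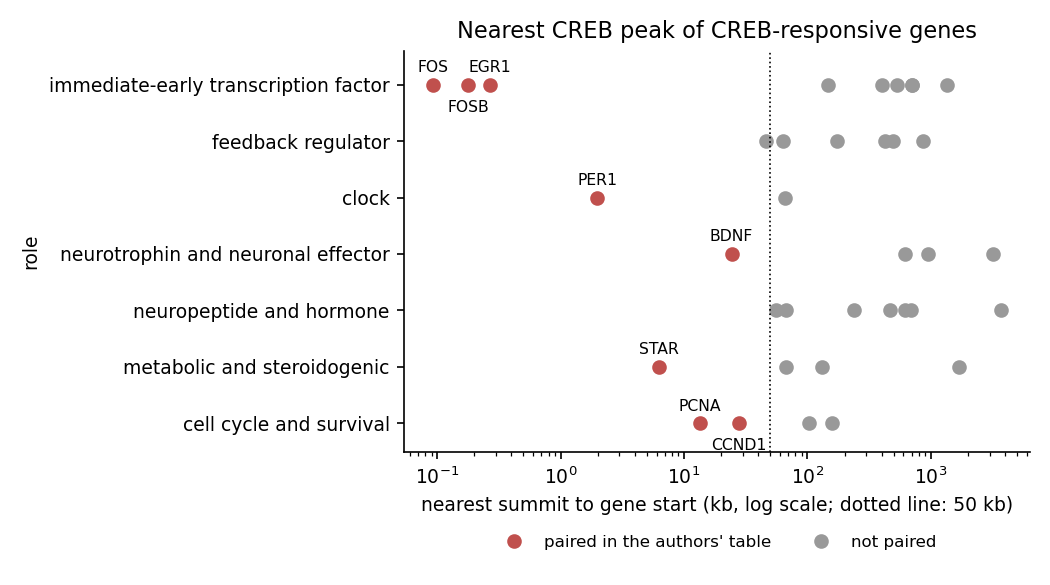
Distance from the nearest CREB summit to the gene start in kb (log axis) for the 36 of 46 listed CREB-responsive genes with a start to measure from, by role; red points are paired in the authors' table and grey points are not, and the dotted line marks 50 kb. FOS, FOSB and EGR1 lie within 1 kb, PER1, STAR, PCNA, BDNF and CCND1 between 1.98 and 27.7 kb.

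Of 18 paralogs and partners of the 7 genes, 2 (11.1%) were paired with a peak within 50 kb, a share near the 8.47% of all protein-coding genes. FOSL1 and FOSL2 of the FOS family, EGR2, EGR3 and EGR4, the JUN partners JUN, JUNB and JUND, the D cyclins CCND2 and CCND3 and the neurotrophins NTF3 and NTF4 were not paired with one. PER3, a clock gene, was paired with a peak of fold 4.01 and 4 fragments, 20.2 kb downstream of the start. STARD3, which shares the lipid-binding START domain with STAR, had one 20.0 kb upstream with a fold of 4.01 and 4 fragments, nearer to the start of NEUROD2. In the CREB pathway list, 3 of 32 genes (9.38%) were paired with a peak, which is likewise near the share of all genes, and none within 1 kb. The 3 were the kinase-family genes CAMKV, CAMK1 and CAMK2G. Their highest folds, 90.7, 11.9 and 8.03, all exceeded that of FOS. Those peaks lay 9.13, 6.87 and 25.2 kb downstream of the TSS. The CAMKV peak closest to its TSS, at 7.80 kb, lay nearer to the start of TRAIP. What lies behind these heights was not tested. CREB1 itself had no peak within 4975 kb of a start.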

How the data were processed

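The data were the processed peak files of 1 CREB ChIP library of NGP cells, with 1 input library and no replicates. Bowtie2, MACS2 and build hg38 are named in the submitters' processing notes; for versions, settings and read filters, the sources used here give nothing. The peak list deposited by the authors gives each peak a fold (a ratio over background), a −log10 p-value, a −log10 q-value and a score, which was 10 times the −log10 q, rounded down, in 5285 of 5285 peaks. The lowest −log10 q was 1.32. A second deposited table lists peaks within 50 kb of refGene TSS, with 1 TSS per symbol, and repeats the score. All fold and q values are the authors' own, used within this list.

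Distances were computed here from summit to TSS. Fragments were recovered from fold, as (fragments + 1) / (background + 1), and −log10 p, as a Poisson tail, within 0.001, or a relative 1e-05 above a −log10 p of 100. A whole number was found for 5285 peaks, against 3.37% with shuffled p-values, 38 peaks had more than 1 solution and each of the 8 peaks described had 1. In 500 simulated peaks the true number was recovered in 100% of them. The median peak had 6 fragments, so counting error limits every value. Intervals are exact Poisson at 95% and cover counting error only, as reads carry no molecular identifiers.

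RefSeq windows of 300 bases (GRCh38.p14) matched 5 of the 7 genes. No sequence was read under the PER1, BDNF, CCND1, STAR and upstream FOSB peaks. Elements were searched by exact match. Windows at promoter peaks were those starting within 50 bp of the TSS in the authors' table, of protein-coding genes with a summit within 1 kb. Protein-coding genes were those on chromosomes 1 to 22 and X. No test was made, for want of replicates and because a peak selected the genes. The genes, the lists and the rule for named genes (the 7 genes, symbols at their peaks, paralogs with a peak, the 3 genes closest in fold to each promoter gene, the 3 nearest unpaired list genes, and NR4A1, CREM, CREB1 and CAMKV) were chosen with earlier results of these data known; some listed genes are named only as unpaired. The tables were made with Python 3.11.15, numpy 2.4.6, pandas 2.3.3, scipy 1.17.1 and matplotlib 3.10.9.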

Additional observations from a re-analysis of the deposited data

How the results depend on the processing

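With only peaks of a −log10 q of 5 or more, the count of the 7 genes with a summit within 1 kb was 1, the count with a peak within 50 kb was 1, and the counts over the 46-gene list were 1 within 1 kb and 1 within 50 kb. That gene was FOS each time. With only peaks at or above the median fold, 1 of the 7 genes and 1 of the 46 were left within 50 kb. The settings applied to the 46 genes within 50 kb were chosen after seeing the data. Limits of 500 bp or 5 kb, RefSeq starts or the peak's edge gave 3 or 4 promoter genes, and limits of 25 and 10 kb gave 6 and 5 of the 7. Of the 5 genes with a window, 0 held the full CRE and 4 held the core, against 1.85% and 24.6% of all windows. The 4 include BDNF, which was searched at several starts and whose core is 44.7 kb from its peak. Without the pseudocount of 1, fragments over background were 23.1 at FOS, 20.3 at the FOSB promoter and at EGR1, 18.4 at CCND1, 17.7 at PER1, 16.8 at STAR, 14.4 at BDNF and 7.38 at the upstream FOSB peak, since the backgrounds are below 1. Fragment recovery without that pseudocount succeeded in 0.151% of peaks. No replicate could be left out, and no paired analysis was possible because each group has 1 sample.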

Other observations

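CREM, which encodes a CREB-family factor and, from an internal start, an inducible repressor of CREB targets, is absent from the authors' table but has an internal start within its 50 kb limit. RefSeq gives 7 CREM starts on chromosome 10. The nearest peak, with a fold of 4.61 and 5 fragments, lies downstream of all of them, at 115 kb from the first start and 46.4 kb from the start at position 35195902. The windows of that start and of the one at 35195850 each hold a full CRE. No peak lay within 1 kb of either start. The windows of FOS, FOSB and EGR1 hold none, and sequence beyond those windows was not searched. Of the 28 unpaired listed genes with a RefSeq start, CREM was the only one with a start within 50 kb of a peak.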
